A study of Mus musculus with 2 samples.

Results

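The mitochondrial ribosomal protein genes were taken as every row of the deposited gene table whose symbol reads Mrpl or Mrps followed by a number and, where there is one, the letter a or b. The rule found 76 of the 16803 genes in the table, 48 named Mrpl for the large subunit and 28 named Mrps for the small subunit. NE4C cells, an established mouse neural stem cell line cloned from embryonic forebrain, were profiled by RNA sequencing as 1 library of a normal culture, called the control, and 1 library of a culture treated with HTL (homocysteine thiolactone, a reactive cyclic form of homocysteine that attaches to lysine residues of proteins). The comparison asks which transcripts differ when these cells meet the agent. How much HTL was given and for how long is not in the labels, both libraries came from the same clonal line, and no other genotype or time was analysed here.

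The files held 10350646 estimated reads for the control and 9102057 for the HTL treatment library. Of the 8 neural stem cell markers, Nes (1617 control and 1365 HTL treatment reads), Msi1 (617 and 555) and Pax6 (69 and 66) did not pass the test used below, Sox2 (894 and 285), Vim (1487 and 648) and Sox1 (48 and 12) were lower, Prom1 (443 and 555) was higher, and Fabp7 had 2 reads in each library. The 5 neuronal markers, among which Dcx was lower (88 and 29 reads) and Tubb3 higher (296 and 396), summed to 54.8 and 59.8 CPM (counts scaled to the library total), and the markers of astrocytes, oligodendrocytes, microglia and blood, and mesenchyme each summed to 34.5 or less in both libraries, with Gfap at 2 and 0 reads. Rows for Aqp4, S100b, Olig2, Ptprc and Hbb-bs were not found in the table. The part of other cell types in any result was not tested, and in bulk RNA fewer cells of a kind and less RNA per cell cannot be told apart. Because each condition had 1 library, every test below compares these libraries rather than the conditions, and tests and intervals cover counting error only.

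Mitochondria carry their own ribosomes, which make the few proteins encoded by mitochondrial DNA, all of them core subunits of the respiratory chain and ATP synthase. The ribosomal RNAs come from mitochondrial DNA, whereas every protein of the particle is encoded in the nucleus, made by cytosolic ribosomes and imported. Part of these proteins descend from bacterial ribosomal proteins, and the rest are additions found in mitochondrial ribosomes. By these roles the small subunit held 25 of the genes, 15 with bacterial kin and 10 specific to mitochondria, and the large subunit held 50, 30 with bacterial kin and 20 specific to mitochondria. Mrps18a and Mrps30 were counted in the large subunit, where their proteins sit in spite of the names, and Mrps36, now known as a component of the oxoglutarate dehydrogenase complex, was counted in neither. Mrps18a and Mrps18b were listed as specific to mitochondria although their family has bacterial kin, so these classes are not strictly classes of descent.

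As a group the 76 genes took almost the same share of the transcriptome in both libraries. Their reads summed to 4164 CPM in the control (95% exact interval 4125 to 4203) and to 4089 CPM after HTL treatment (4048 to 4131), a log2 ratio of -0.026 (-0.046 to -0.0060). The median log2 ratio, HTL treatment over control and scaled to the library totals, was 0.013 over the 76 genes and -0.14 over the 13442 genes tested, those whose reads in both libraries add up to 10 or more, a distance of 0.15. With each gene set against genes of like length the order turned, to -0.040 for the group and 0 for all genes. Their log2 ratios had an interquartile range of 0.45 and a median absolute value of 0.23, against 0.89 and 0.44 for all genes tested, which include genes with few reads. The range was 0.31 for cytosolic ribosomal protein genes and 0.36 for genes of the respiratory chain and ATP synthase.

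All 76 genes passed that filter. Reads of each gene were set against the library totals in an exact two-sided binomial test, adjusted by Benjamini-Hochberg over the 13442 genes. A single gene, Mrpl41, reached the study's cutoff of an absolute log2 ratio of at least 1 with an adjusted p of at most 0.001, which is 1.32% of the group beside 10.8% of all genes tested. It was lower after HTL treatment, as were 7.98% of all genes tested at this cutoff, and 0 of the 76 genes were higher at it, beside 2.81%. At the same adjusted p and any fold, 25 of the 76 genes passed (32.9%, beside 38.6% of all genes tested). Of these, 10 were higher (13.2%, beside 14.5%) and 15 were lower (19.7%, beside 24.1%) after HTL treatment, and 51 did not pass. Ratios above 0 were found for 40 of the 76 genes (52.6%, beside 41.3% of all genes tested), and for 33 with length centring. An absolute log2 ratio of at least 0.5 was seen in 13 of the genes (17.1%), 6 higher and 7 lower, beside 44.7% of all genes tested. The split depended on how the libraries were scaled. With the trimmed mean of M values (TMM) of edgeR, which moved the median gene to -0.0073, 16 of the genes were higher and 7 lower at any fold. At the study's stricter cutoff, the calls over all genes went from 378 higher and 1072 lower to 553 higher and 798 lower. The any-fold share of all genes was not counted under TMM or the other scalings. Counts of passing genes under those scalings, here and below, therefore have no background, since 14.5% and 24.1% belong to library totals. If replicate cultures varied by a coefficient of 0.1 around their mean, the exact test of edgeR would keep only Mrpl41 and Mrpl51 among the 25 genes.

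**Figure D1:**
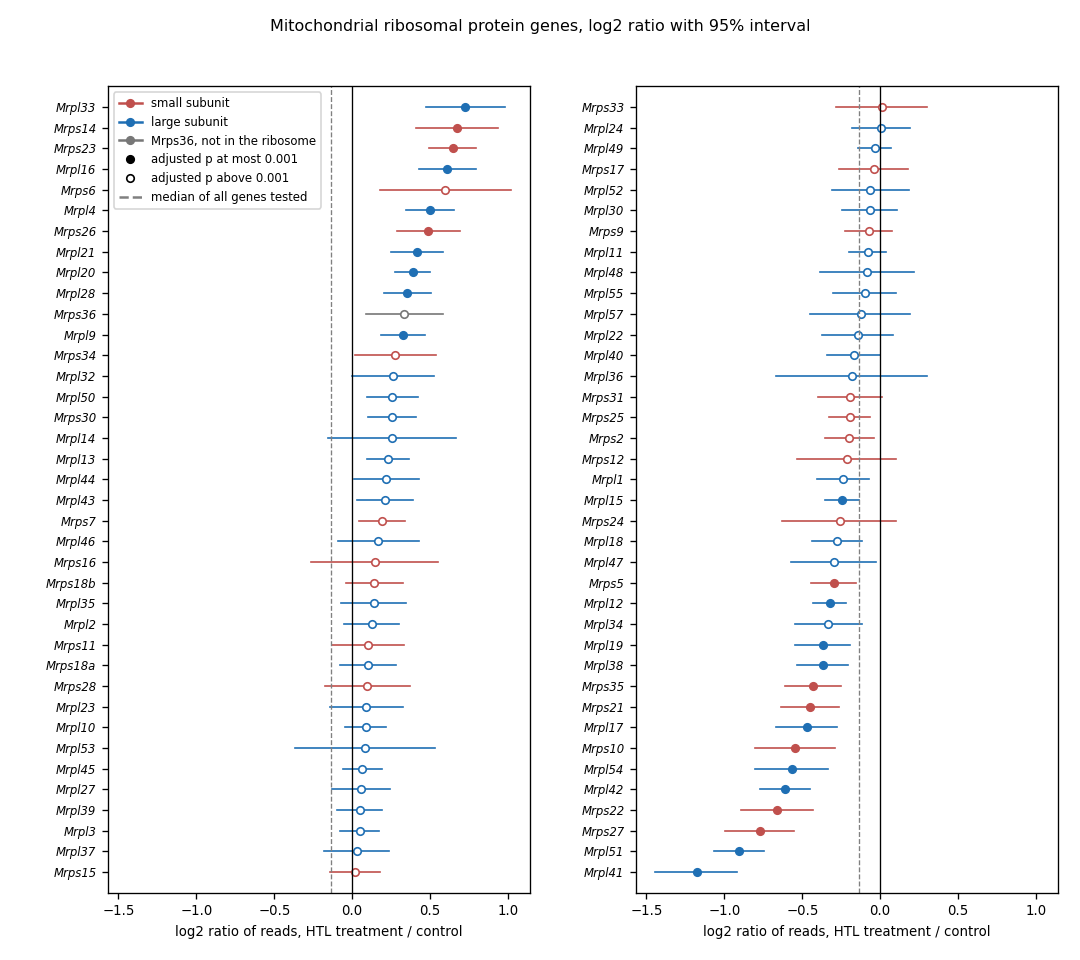
Log2 ratio of HTL treatment over control (horizontal axis) for each of the 76 genes, ordered by value, with 95% exact intervals as lines and colours for small subunit, large subunit and neither. Filled points have an adjusted p of at most 0.001, and the values run from -1.18 for Mrpl41 to 0.72 for Mrpl33 around a group median of 0.013.

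Transcript levels of the group, as the authors' FPKM (fragments scaled to transcript length and library size, a level per length), spanned 24.4-fold in the control, from 7.67 for Mrpl57 to 187 for Mrpl12, and 41.2-fold after HTL treatment, from 5.65 for Mrpl17 to 233 for Mrpl20. The Mrpl17 transcript in the deposited table was 6712 bases long, beyond the 4442 bases that the annotation gives the gene. Its low FPKM, from 552 control and 350 HTL treatment reads, rests on that longer model. The transcripts of Mrpl41 and Mrpl11 were also longer than their annotated genes. The median level was 41.6 FPKM in the control and 44.2 FPKM after HTL treatment. Mrpl12 encodes the protein of the flexible stalk that receives the translation factors. It lies on chromosome 11 (120345927 to 120350379, plus strand, build NCBIM37) and had the highest control level, at 187 FPKM, and 149 FPKM after HTL treatment. Mrpl20, the kin of a bacterial protein that joins the large subunit early in assembly, lies on chromosome 4 (155177645 to 155183885, plus strand) and went the other way, from 179 to 233 FPKM. The next levels in the control were those of Mrps21 (150 FPKM, then 110), Mrpl42 (131, then 85.9) and Mrpl13 (112, then 132).

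At the low end stood Mrpl57, Mrpl17, Mrpl36, Mrps14 and Mrpl35, with control levels of 7.67, 7.85, 9.17, 10.1 and 10.2 FPKM and levels of 7.02, 5.65, 8.08, 16.0 and 11.2 FPKM after HTL treatment. By FPKM, which depends on the transcript models, genes whose products sit in the same particle were thus spread over more than an order of magnitude within a library. The order of the genes was largely kept between the libraries. Spearman's rank correlation of their FPKM was 0.92 over the 76 genes, which share these libraries and are not independent replicates, and 7 of the 10 highest were shared. The largest move in rank was that of Mrpl51, from 14 in the control to 45 after HTL treatment. Mrpl33 moved from rank 33 to rank 9. The 5 genes with the most reads held 17.1% of the group's reads in the control and 16.6% after HTL treatment, so no single gene carried the sum.

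**Figure D2:**
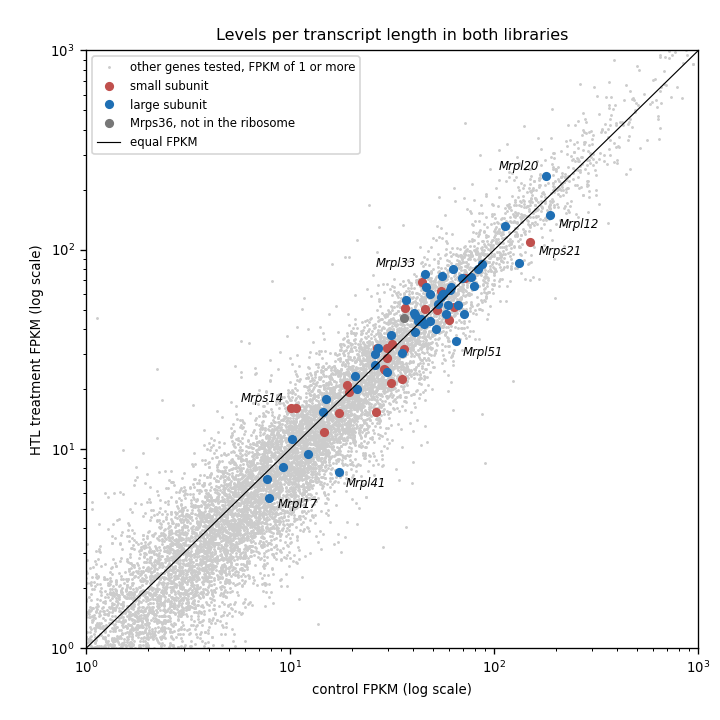
Control FPKM (horizontal, log scale) against HTL treatment FPKM (vertical, log scale), with the 76 genes as coloured points over the other genes tested in grey and a line of equal FPKM. Mrpl12 (187 and 149) and Mrpl20 (179 and 233) sit at the top on opposite sides of the line, and Mrpl41 (17.3 and 7.63) and Mrpl51 (64.9 and 34.6) sit below it.

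Mrpl41 encodes a large subunit protein that has also been described as binding BCL2. It had 435 control and 169 HTL treatment reads, or 17.3 and 7.63 FPKM, a log2 ratio of -1.18 (95% exact interval -1.44 to -0.92, exact binomial test, Benjamini-Hochberg adjusted, adjusted p = 3.644e-20). The gene lies on chromosome 2 (24829637 to 24830618, minus strand, NCBIM37). Its transcript in the deposited table was 2423 bases long, longer than the 982 bases that the annotation gives the gene, so its FPKM is per a longer model than the one placed here. Mrpl51 followed, with 1011 and 474 reads (64.9 and 34.6 FPKM, log2 ratio -0.91, -1.07 to -0.75). The interval of Mrpl51 reached past -1, so the data do not place it on either side of the study's cutoff.

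Mrps27, a small subunit protein of the pentatricopeptide repeat family of RNA binders, had 501 and 258 reads (26.2 and 15.3 FPKM, log2 ratio -0.77, -0.99 to -0.55). The exons of 6430562O15Rik lie over those of Mrps27 on the other strand, and without a stated use of strand their reads cannot be told apart. Mrps22, which is specific to the mitochondrial small subunit, had 444 and 247 reads (35.3 and 22.3 FPKM, log2 ratio -0.66, -0.89 to -0.43). Mrpl42 fell from 871 to 502 reads and Mrpl54 from 410 to 243, with log2 ratios of -0.61 and -0.57, and both proteins belong to the mitochondria-specific part of the large subunit. The 6 lowest ratios were of genes listed as specific to mitochondria, a class of 20 large and 10 small subunit genes among the 76. With length centring Mrps10, which has bacterial kin, came 6th from the lowest. Below these in size were Mrps10 (332 and 200 reads, -0.54), Mrpl17 (552 and 350, -0.47), Mrps21 (611 and 393, -0.45), Mrps35 (651 and 425, -0.43), Mrpl38 (745 and 507, -0.37), Mrpl19 (642 and 437, -0.37), Mrpl12 (1825 and 1281, -0.33), Mrps5 (943 and 674, -0.30) and Mrpl15 (1610 and 1193, -0.25). The adjusted p of these 15 genes ran from 4.291e-30 for Mrpl51 to 0.000115 for Mrps5 in the exact binomial test, Benjamini-Hochberg adjusted.

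None of the genes that were higher after HTL treatment reached a log2 ratio of 1. Mrpl33 encodes the kin of a small bacterial large subunit protein and lies on chromosome 5 (31899308 to 32004345, plus strand, NCBIM37). It had 216 control and 314 HTL treatment reads, or 45.8 and 75.6 FPKM, the highest log2 ratio of the group at 0.72 (95% exact interval 0.47 to 0.98, exact binomial test, Benjamini-Hochberg adjusted, adjusted p = 4.473e-08). Exons of Bre overlap Mrpl33 on the same strand, and how the authors shared out reads there is not stated. Mrps14, the kin of a protein in the head of the bacterial small subunit, had 205 and 287 reads (10.1 and 16.0 FPKM, log2 ratio 0.67, 0.41 to 0.94). Mrps23 had 615 and 845 reads (44.0 and 68.7 FPKM, log2 ratio 0.64, 0.49 to 0.80), and it belongs with Mrps26 to the mitochondria-specific small subunit genes.

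Mrpl16, a protein near the tRNA sites of the large subunit, had 425 and 570 reads (36.8 and 56.0 FPKM, log2 ratio 0.61, 0.43 to 0.79). Mrpl4, whose kin lines the exit tunnel, had 619 and 770 reads (46.1 and 65.0 FPKM, log2 ratio 0.50, 0.35 to 0.66). The other genes that passed were Mrps26 (367 and 452 reads, 0.49), Mrpl21 (557 and 654, 0.42), Mrpl20 (1182 and 1359, 0.39), Mrpl28 (689 and 774, 0.35) and Mrpl9 (793 and 874, 0.33). Of these 10 genes 7 were large subunit genes with bacterial kin, a class of 30 among the 76. With length centring 8 genes were higher, 5 of them from that class. The adjusted p of the 10 genes ran from 1.951e-16 for Mrps23 to 1.447e-05 for Mrpl9 in the exact binomial test, Benjamini-Hochberg adjusted. The 51 genes that did not pass had log2 ratios from -0.33 (Mrpl34, 437 and 305 reads) to 0.59. That highest value was of Mrps6, from 85 and 113 reads (adjusted p = 0.00915 in the same exact binomial test). At these depths the median width of a gene's 95% interval in the group was 0.37 on the log2 scale, and 41 of the 76 intervals left out 0.

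Grouped by these roles, the large subunit genes listed as specific to mitochondria were 0 higher, 5 lower and 15 neither of 20. Their median log2 ratio was -0.0034 and their summed reads were 1125 and 1036 CPM (log2 ratio of the sum -0.12, -0.16 to -0.080). The 30 large subunit genes with bacterial kin were 7 higher, 4 lower and 19 neither, with a median of 0.051 and summed reads of 1890 and 1942 CPM (0.039, 0.0098 to 0.069). Over all genes tested 14.5% were higher and 24.1% lower, so 5 of 20 lower is near the background. The absence of higher genes in the first group did not hold under other scalings, since TMM gave 3 higher and 4 lower there and 8 higher and 1 lower in the second. In the small subunit, 1 gene was higher and 3 lower of the 15 with bacterial kin (median -0.043), and 2 were higher and 3 lower of the 10 specific to mitochondria (median -0.092). The whole small subunit had a median of -0.043 over 25 genes and the whole large subunit 0.038 over 50, and both medians were above 0 with TMM, at 0.087 and 0.17. No test of the difference between these groups was run.

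**Figure D3:**
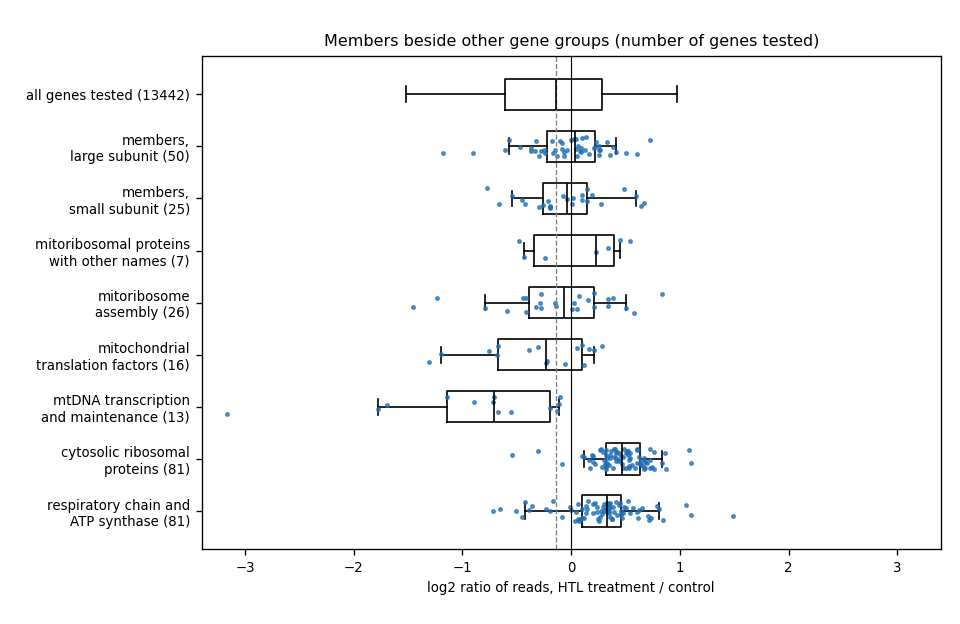
Log2 ratio of HTL treatment over control (horizontal axis) for the genes of each group as points over boxes of the quartiles and median, with whiskers at the 5th and 95th percentiles, the number of genes in brackets and a dashed line at the median gene. The large and small subunit groups of the 76 genes have medians of 0.038 and -0.043, below the medians of the cytosolic ribosomal protein genes (0.47) and of the respiratory chain and ATP synthase genes (0.33).

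The genes were also placed by listed sites of their proteins in the particle. As listed, no site held genes that passed in both directions on library totals. Every site but the peptidyl transferase side had only 1 gene that passed, so both directions could not occur there. The result therefore does not show that sites share a direction, and it also depended on the list. Mrpl4, which was higher, was listed with the peptidyl transferase side although its kin lines the exit tunnel. Placed with the tunnel genes, it would have stood beside Mrpl17, which was lower. At the stalk, where factors dock, Mrpl12 was lower, while Mrpl11 (1226 and 1019 reads, log2 ratio -0.081) and Mrpl10 (974 and 909 reads, 0.086) did not pass. Around the tunnel exit, through which new chains leave towards the inner membrane, Mrpl17 was the sole gene of 6 to pass, and with TMM or length centring 0 of the 6 did, its log2 ratio being -0.34 and -0.094 there. The others there were Mrpl47 (271 and 194 reads, -0.30), Mrpl22 (366 and 291, -0.15), Mrpl24 (511 and 450, 0.0021), Mrpl45, which tethers the ribosome to the membrane (1064 and 979, 0.065), and Mrpl23 (313 and 293, 0.090). The central protuberance is the part of the large subunit that faces the head of the small subunit. Ratios below 0 were found for 36 of the 76 genes and 7893 of the 13442 genes tested. Among the 5 genes of the central protuberance, 4 had ratios below 0. They were Mrpl38 (-0.37, the one that passed), Mrpl18 (770 and 559 reads, -0.28, adjusted p = 0.00147 in the exact binomial test, Benjamini-Hochberg adjusted), Mrpl40 (635 and 496, -0.17) and Mrpl48 (206 and 171, -0.083), and the exception was Mrpl46 (249 and 246, 0.17). With TMM the ratio of Mrpl48 was above 0, at 0.047, and no gene of the central protuberance passed. With length centring 3 of its 5 genes, Mrpl38, Mrpl18 and Mrpl40, were lower and 0 were higher, with a median of -0.31.

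Ratios above 0 were found for 40 of the 76 genes and 5549 of the 13442 genes tested. On the side of the peptidyl transferase centre, where peptide bonds form, all 5 genes had ratios above 0. Besides Mrpl16 and Mrpl4 these were Mrpl2 (555 and 532 reads, 0.12), Mrpl27 (505 and 461, 0.054) and Mrpl3 (1095 and 995, 0.047), none of which passed. Once each gene was set against the median of genes of like length, Mrpl2 and Mrpl27 fell below 0, at -0.013 and -0.083. Along the mRNA path and decoding centre of the small subunit, Mrps5 was lower, but with TMM Mrps5 did not pass and Mrps7 passed as higher. Mrps24 (150 and 110 reads, -0.26), Mrps12 (198 and 150, -0.21) and Mrps2 (779 and 597, -0.20) had ratios below 0, and Mrps11 (316 and 298, 0.10) and Mrps7 (757 and 761, 0.19) above 0, without passing on library totals. Mrps11 and Mrpl46 share exon sequence on opposite strands, and reads from the shared stretch cannot be told apart.

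Among the genes whose names and places differ, none passed on library totals, and Mrps30 and Mrps36 passed as higher with TMM. Mrps18a had 532 and 501 reads (61.0 and 65.2 FPKM, log2 ratio 0.099), and Mrps18b, its relative in the small subunit, had 498 and 483 (45.6 and 50.2 FPKM, 0.14). Mrps30, in the large subunit, had 662 and 695 reads (40.5 and 48.2 FPKM, 0.26), and Mrps36 had 259 and 287 (36.2 and 45.6 FPKM, 0.33). The paralogues Mrps18a, Mrps18b and Mrps18c, which the rule leaves out for its letter, had ratios between 0.099 and 0.22, within the intervals of each other. Of the low genes in the group, Mrpl57 (185 and 149 reads, -0.13), Mrpl36 (85 and 66, -0.18) and Mrpl35 (392 and 379, 0.14) did not pass either, and Mrpl13, one of the most abundant, stayed just outside with 888 and 917 reads (0.23, adjusted p = 0.00169 in the exact binomial test, Benjamini-Hochberg adjusted).

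The 7 other proteins of the mitochondrial ribosome that carry unrelated symbols were 3 higher, 3 lower and 1 neither. Of all genes tested 14.5% were higher and 24.1% lower. With TMM 3 of the 7 were higher and 1 was lower. Dap3, the GTP-binding protein of the small subunit first described in cell death, had 1147 and 1472 reads (log2 ratio 0.55), Aurkaip1 had 663 and 797 (0.45) and Chchd1 had 456 and 506 (0.34), and these 3 were higher. Ptcd3, a pentatricopeptide repeat protein near the mRNA entry, had 1270 and 802 reads (-0.48), Ict1, a peptidyl-tRNA hydrolase built into the large subunit, had 407 and 265 (-0.43), and Gadd45gip1 had 1172 and 870 (-0.24), and these 3 were lower. Mrps18c did not pass (257 and 264 reads, 0.22). All 7 lay within the range of the 76 genes, -1.18 to 0.72.

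Most of these genes are short, and ratios in these libraries moved with length. The group had a median transcript length of 1064 bases, against 2888 for all genes tested, 72 of the 76 genes were shorter than the median gene, and 43 fell in the shortest of 10 length bins. Over all genes the median log2 ratio went from 0.14 in the shortest bin to -0.38 in the longest. Inside the shortest bin the 43 members had a median of 0.054, below the 0.14 of the whole bin. When each gene was set against the median of its bin, the group's median changed from 0.013 to -0.040. The rank correlation of length with log2 ratio was -0.13 over the 76 genes and -0.18 over all genes tested, which share the libraries. Whether length contributes to the ratios through the RNA or through the libraries was not tested.

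**Figure D4:**
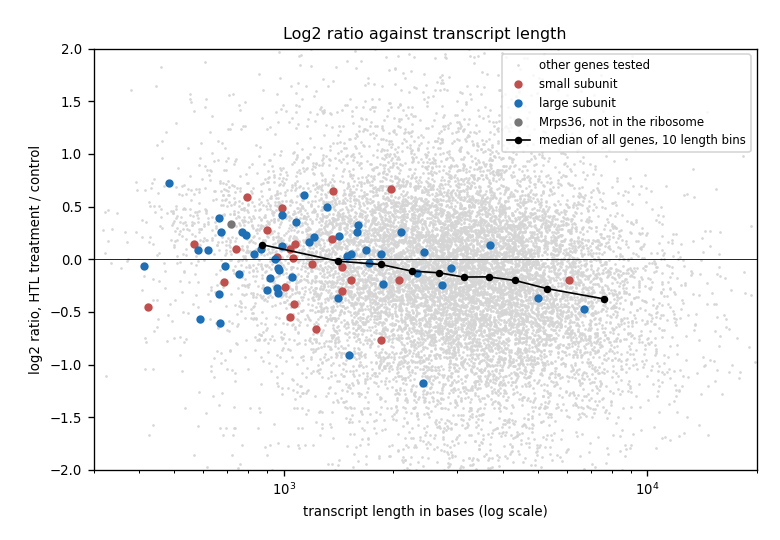
Log2 ratio of HTL treatment over control (vertical axis) against transcript length in bases (horizontal, log scale), with the 76 genes as coloured points, other genes tested in grey and the median of all genes in 10 length bins as a black line. The line falls from 0.14 to -0.38, and the 76 genes crowd at its short end on both sides of it.

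Genes of the cytosolic ribosome had higher ratios in these libraries than those of the mitochondrial ribosome. The 81 cytosolic ribosomal protein genes tested had a median log2 ratio of 0.47, with 76 higher and 3 lower, and their summed reads went from 82128 to 112786 CPM (log2 ratio 0.46). The 81 nuclear genes of the respiratory chain and ATP synthase, whose products assemble with the proteins that mitochondrial ribosomes make, had a median of 0.33, with 42 higher and 5 lower (summed log2 ratio 0.32). Beside these counts, 14.5% of all genes tested were higher and 24.1% lower. Centred on length, the medians of these 2 sets were 0.34 and 0.22, and that of the mitochondrial ribosomal protein genes -0.040. The counts were then 69 higher and 2 lower for the cytosolic ribosome, and 29 higher and 6 lower for the respiratory chain and ATP synthase. No test of the differences between these sets of genes was run.

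Promoters were examined because genes of this kind are textbook targets of the factors NRF1, the ETS factor GABP (Gabpa and Gabpb1) and YY1. The windows came from RefSeq (table of build GRCm38.p6) and spanned 250 bases before to 50 bases after each start. They matched 67 of the 76 genes, with 73 windows. Letters were searched on both strands. The ETS letters CCGGAAG stood in 24 of the 73 windows (32.9%), against 16.6% of 13553 windows of genes tested and 8.86% of all 32851 windows. The YY1 letters AAGATGGCG stood in 8 (11.0%, against 2.86% and 1.40%) and the NRF1 letters, GCGCA followed by its reverse complement, in 3 (4.11%, against 1.96% and 0.971%). CCAAT was in 41.1% (against 38.1% of genes tested), GGGCGG was in 52.1% (against 62.9%), and TATAAA was in 6.85% (against 6.89%). The amino acid response letters TGATGNAA, which ATF4 and ATF5 can bind, were in 0 of the 73 windows (against 2.18% of genes tested).

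Counted by gene, the ETS letters were in 4 of 9 genes that were higher, 5 of 10 that were lower and 15 of 48 that did not pass, so they did not separate the directions. A match is a description of letters and not a shown binding site. ETS and YY1 letters together were counted only for genes with a single window. A pair of these genes held both, 1 of them lower and 1 not passing. The windows below are of the genes with the lowest and the highest log2 ratio and of that pair. Each reads 5′ to 3′ along the gene, placed by its single exact match in NCBIM37, and the capitals mark CCGGAAG, AAGATGGCG and CCAAT or their reverse complements (CTTCCGG and ATTGG).
Mrpl41, chr2:24830569-24830868, minus strand: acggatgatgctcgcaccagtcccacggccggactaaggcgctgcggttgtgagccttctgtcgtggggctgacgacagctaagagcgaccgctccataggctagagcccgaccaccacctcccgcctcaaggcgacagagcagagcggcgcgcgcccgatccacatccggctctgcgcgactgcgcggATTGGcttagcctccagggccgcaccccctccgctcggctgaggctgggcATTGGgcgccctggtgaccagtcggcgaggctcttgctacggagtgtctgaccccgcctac
Mrpl33, chr5:31916074-31916373, plus strand: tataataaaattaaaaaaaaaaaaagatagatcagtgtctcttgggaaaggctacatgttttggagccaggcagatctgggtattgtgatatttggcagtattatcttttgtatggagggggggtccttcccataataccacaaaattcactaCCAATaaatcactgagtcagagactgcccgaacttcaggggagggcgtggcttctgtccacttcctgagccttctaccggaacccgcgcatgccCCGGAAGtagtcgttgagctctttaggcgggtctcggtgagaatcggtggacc
Mrps27, chr13:100114491-100114790, plus strand: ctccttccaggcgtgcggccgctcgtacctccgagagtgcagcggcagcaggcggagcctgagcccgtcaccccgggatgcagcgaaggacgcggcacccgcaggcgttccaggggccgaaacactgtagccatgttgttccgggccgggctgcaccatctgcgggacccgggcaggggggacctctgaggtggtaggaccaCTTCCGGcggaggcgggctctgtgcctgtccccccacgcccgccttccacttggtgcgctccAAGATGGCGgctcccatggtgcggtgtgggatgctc
Mrps18a, chr17:46247703-46248002, plus strand: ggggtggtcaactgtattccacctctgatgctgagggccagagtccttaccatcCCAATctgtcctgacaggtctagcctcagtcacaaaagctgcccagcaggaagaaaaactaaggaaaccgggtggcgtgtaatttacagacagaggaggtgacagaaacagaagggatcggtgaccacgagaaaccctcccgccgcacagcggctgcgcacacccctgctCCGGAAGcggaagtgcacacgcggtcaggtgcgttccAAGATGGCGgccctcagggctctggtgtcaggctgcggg
The window of Mrpl41, the lowest gene, held CCAAT letters on the other strand at 2 places and no ETS or YY1 letters, and that of Mrpl33, the highest, held CCAAT and ETS letters. In Mrps27 and Mrps18a the YY1 letters lie downstream of the ETS letters and near the end of the window. The start used by RefSeq for Mrpl33 lies inside the gene as annotated here. The window of Mrpl12, the most abundant gene of the control, held none of the letters searched.

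Of the factors NRF1, GABP and YY1, no gene passed the test. Gabpa had 1011 and 803 reads (log2 ratio -0.15), Gabpb1 390 and 355 (0.050), Nrf1 569 and 524 (0.067) and Yy1 955 and 812 (-0.049). Among other regulators of mitochondrial content, Myc, a growth factor-responsive activator of ribosome genes, fell from 538 to 111 reads (log2 ratio -2.09, -2.40 to -1.79), and Pprc1, a coactivator of the PGC-1 family, fell from 3031 to 1521 (-0.81). Of the 8 regulators tested 0 were higher and 2 were lower, beside 14.5% and 24.1% of all genes tested. Ppargc1a had 1 read in each library and was not tested.

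Among genes that act on the mitochondrial ribosome, 2 of 26 assembly factors and 1 of 16 translation factors were lower at the study's cutoff. These counts are near the background, since 7.98% of all genes tested were lower at it. Of 26 assembly factors, 3 were higher and 5 lower (median log2 ratio -0.067), beside 14.5% and 24.1% of all genes tested. Tfb1m, which dimethylates the small subunit ribosomal RNA, had 284 and 91 reads (-1.45, -1.81 to -1.11), and Gtpbp10, a GTPase of large subunit assembly, had 839 and 314 (-1.23, -1.42 to -1.04). Both passed the study's cutoff. At the other end Nsun4, a ribosomal RNA methyltransferase, had 73 and 115 reads (0.84, 0.41 to 1.29). With TMM the split of this list turned to 6 higher and 3 lower. Of 16 translation factors 0 were higher and 5 lower (median -0.23), beside the same 14.5% and 24.1%. Mtif2, the initiation factor that brings the first tRNA, fell from 603 to 214 reads (-1.31, -1.54 to -1.08), while Tsfm, an elongation factor, had the highest ratio without passing (252 and 270 reads, 0.28). With TMM 1 translation factor was higher and 3 were lower.

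The genes that transcribe and maintain mitochondrial DNA, the source of the ribosomal RNAs, all had ratios below 0, 13 of 13, with a median of -0.71. Over all genes tested 7893 of 13442 had ratios below 0. Of the 13 genes 8 were lower, beside 24.1% of all genes tested. Polrmt, the mitochondrial RNA polymerase, had 266 and 106 reads (log2 ratio -1.14, -1.48 to -0.81). Mterf2, a termination factor family member, had 95 and 24 (-1.78), and its relatives Mterf1a (45 and 4, -3.16) and Mterf1b (38 and 10, -1.69) were lower as well. Mterf1a and Mterf1b are near copies whose reads may be shared out between them, so their separate values are uncertain. Mterf3 (222 and 196 reads, 0.0057) and Mterf4 (209 and 191, 0.055), of the same family, were listed with the assembly factors and did not pass. Had they been placed in this list, not all of its ratios would be below 0. Polg, the DNA polymerase, had the highest ratio of the list (563 and 461 reads, -0.10). With TMM 11 of the 13 stayed below 0 and 5 were lower.

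Of 9 genes of mitochondrial protein quality control and stress, 2 were higher and 3 lower (median -0.0085), beside 14.5% and 24.1% of all genes tested. Atf5, a transcription factor of the mitochondrial unfolded protein response, rose from 339 to 1509 reads (18.4 and 92.0 FPKM, log2 ratio 2.34, 2.17 to 2.51), and Hspa9, the mitochondrial HSP70, rose from 7520 to 9929 (0.59). The chaperonin genes went the other way, Hspd1 from 15565 to 7705 reads (-0.83) and Hspe1 from 3566 to 2487 (-0.33), as did the protease Htra2 (305 and 153, -0.81). All these lists were chosen with earlier results of the same libraries known, and their counts are a description.

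**Figure D5:**
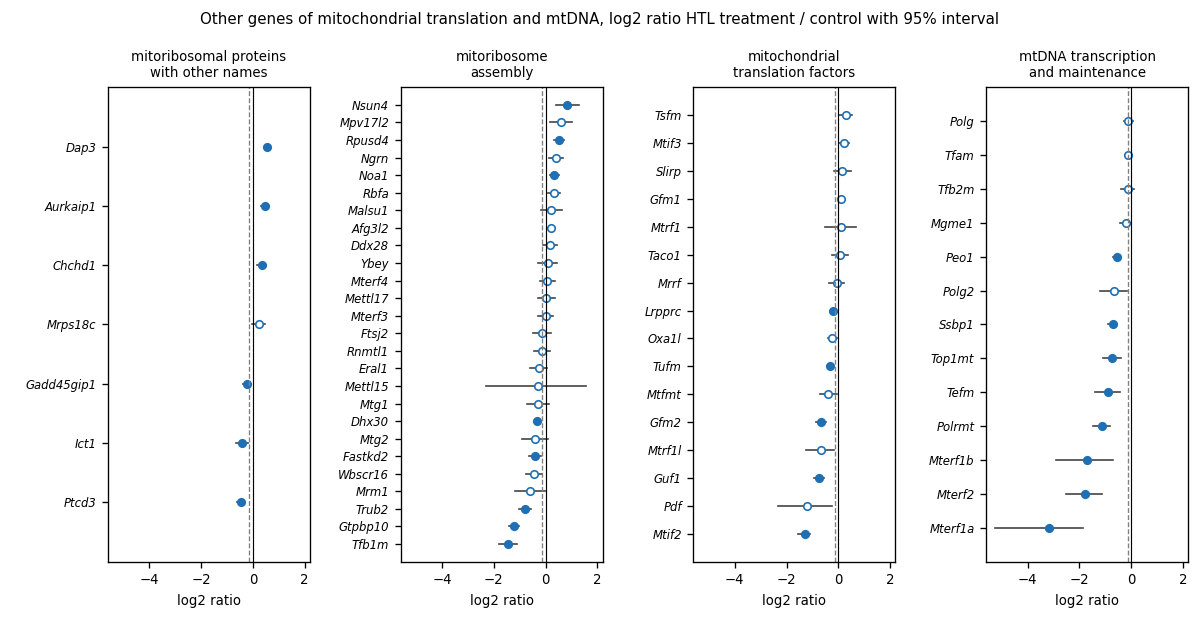
Log2 ratio of HTL treatment over control (horizontal axis) with 95% exact intervals in panels for the mitochondrial ribosomal proteins with other names, assembly factors, translation factors and genes of mitochondrial DNA, with a dashed line at the median gene and filled points at an adjusted p of at most 0.001. Polrmt (-1.14), Mtif2 (-1.31), Gtpbp10 (-1.23) and Tfb1m (-1.45) lie further from 0 than any of the 76 ribosomal protein genes but Mrpl41 (-1.18).

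Some members share reads or ground with other genes. Fractional estimated counts, the trace of reads split between similar sequences, were found in 19 of the 76 genes, 4 of them among the 25 that passed. The table also lists pseudogenes of the family, with 35 and 12 reads for a relative of Mrps18b (Gm15760), 6 and 5 for one of Mrpl40 (Gm16523) and 1 and 0 for one of Mrpl32 (Gm6578), all small beside their parent genes. Exons of another gene overlapped 22 members on the opposite strand and 6 on the same strand, 26 genes in all and 6 of the 25 that passed. Mrpl12 with Gm16755, Mrpl21 with Ighmbp2 and Mrps26 with 4930473A02Rik are among them. Without a stated use of strand, reads of opposite-strand pairs cannot be told apart.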

How the data were processed

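Total RNA from NE4C cultures gave 1 control and 1 HTL treatment library, grouped by the sample titles. Per the labels, libraries were made with a TruSeq kit, sequenced with BGISEQ protocols and processed on mouse build mm9 (NCBIM37). The methods of the study say that clean reads were aligned to mouse genome and gene references and quantified by RSEM. Mapper, versions, annotation release and use of strand are not given in the sources used here. The authors deposited estimated counts, not normalized, and FPKM, scaled to transcript length and library size, beside transcript lengths. Columns with the authors' log2 ratio, direction, p-value and FDR were not used.

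Estimated counts were rounded, and genes whose reads in both libraries add up to 10 or more were tested (13442, with 3361 left out) by a two-sided exact conditional binomial test against the library totals with Benjamini-Hochberg adjustment over all of them (SciPy 1.17.1). For log2 ratios 0.5 read, scaled to the totals, was added. Intervals are 95% Clopper-Pearson intervals. Calls used an adjusted p of at most 0.001, with or without a 1-unit minimum on the absolute log2 ratio, the cutoffs of the study. Reads were not collapsed to molecules, and the intervals treat each read as an independent count. With 1 library per condition they cover counting error only. On simulated counts for 16803 genes of this comparison, 198 of 200 changed genes and 0 unchanged genes were called. The simulated counts held counting error only, without variation between cultures. The changed genes had a mean of at least 100 reads and were changed by folds beyond the cutoff. The simulation thus checks the procedure and does not give its error rate in real cultures.

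Genes were named by rule: called members, the 6 highest and 6 lowest log2 ratios among members with a mean of at least 100 reads, the 5 highest and 5 lowest control FPKM, members at listed sites of the ribosome, members whose name and place differ, every ribosomal protein with another name and, from each other list, called genes and both extremes. Other members that passed the test at any fold were added after their values were seen, as were Mrps6, Mrpl34, Mterf3, Mterf4, genes quoted for overlaps and the further genes of the stress and regulator lists. The members and lists were chosen with earlier results of these data known. Positions came from GENCODE for NCBIM37, which matched 75 of 76 members (Mrpl57 was not matched), and promoter windows from RefSeq.

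Alternatives were TMM and upper quartile scaling (edgeR 4.0.16), median of ratios scaling (DESeq2 1.42.0), centring on 10 length bins, 5 reads added, the ratio of FPKM + 1, filters of at least 1 read or a mean of at least 50 reads, members taken by place in the ribosome, a log2 cutoff of 0.5, and an exact test in edgeR that assumes a coefficient of variation of 0.1, 0.2 or 0.4. The quasi-likelihood test of edgeR could not be fitted without replicates.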

Additional observations from a re-analysis of the deposited data

How the results depend on the processing

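No paired analysis was possible because control and HTL treatment had 1 library each, which also meant that none could be left out. The scale chosen for the libraries decided the balance of higher and lower genes. Of the 76 genes, 10 were higher and 15 lower with library totals, 16 higher and 7 lower with TMM, and 16 higher and 7 lower with median of ratios. Upper quartile scaling gave 14 and 10, length centring 8 and 15, and members taken by place in the ribosome (82 genes) 13 and 18. The summed log2 ratio went from -0.026 to 0.10 with TMM, 0.11 with median of ratios and 0.067 with upper quartile scaling, and the large subunit median from 0.038 to 0.17 with both TMM (0.168) and median of ratios (0.174). An assumed coefficient of variation in edgeR's exact test removed most calls. At 0.1, 0.2 and 0.4 the higher genes numbered 0, 0 and 0 and the lower genes 2, 0 and 0. Mrpl41, the 1 gene past the study's cutoff, was kept under every alternative except an assumed coefficient of variation of 0.2 or 0.4, where the count was 0. At a log2 cutoff of 0.5 the count was 12. Over all genes, the 1450 calls became 816 with FPKM + 1, 120 and 6 at a coefficient of variation of 0.2 and 0.4, and 3637 at a log2 cutoff of 0.5.

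Genes near 0 changed sign, none of them past an adjusted p of 0.001 in either setting. With TMM these were Mrpl57 at 0.0035, Mrpl55 at 0.030, Mrpl48 at 0.047, Mrpl11 at 0.049, Mrps9 at 0.056, Mrpl30 at 0.062, Mrpl52 at 0.067, Mrps17 at 0.087 and Mrpl49 at 0.095. With median of ratios they were Mrpl57 at 0.0097, Mrpl55 at 0.037, Mrpl48 at 0.053, Mrpl11 at 0.055, Mrps9 at 0.062, Mrpl30 at 0.068, Mrpl52 at 0.073, Mrps17 at 0.093 and Mrpl49 at 0.10. With upper quartile scaling they were Mrpl48 at 0.010, Mrpl11 at 0.012, Mrps9 at 0.019, Mrpl30 at 0.025, Mrpl52 at 0.030, Mrps17 at 0.050 and Mrpl49 at 0.058. Length centring turned Mrps25 to 0.085, Mrpl11 to 0.048 and Mrpl49 to 0.014, and turned Mrpl24 to -0.14, Mrps33 to -0.13, Mrps15 to -0.12, Mrpl27 to -0.083, Mrpl53 to -0.053, Mrpl23 to -0.047, Mrps28 to -0.041, Mrps18a to -0.038, Mrps11 to -0.037 and Mrpl2 to -0.013. With FPKM + 1 Mrpl24 was at -0.0011. The filters and 5 added reads changed no sign and no call among the 76 genes. The cause of these changes was not tested beyond the shift that each scaling makes by construction.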
